A study of Homo sapiens with 6 samples.

Results

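The 10 genes HAND1, HAND2, ISL1, NKX2-5, TBX2, TBX3, TBX5, TBX20, MEF2C and FOXF1 encode transcription factors of the lateral mesoderm and the early heart. They were taken by symbol from a table of FPKM, a level scaled to the length of the transcript and to the library's mapped fragments, with 58364 rows, where each had 1 row. The table holds 6 RNA-seq libraries of cells collected at day 8 of hematopoietic differentiation of H1, a human embryonic stem cell line. Both WT libraries are unedited H1 cells, and the other 4 are MSX2-/- cells, with 2 replicates of each of the clones called 1# and 2# here. MSX2 encodes a homeobox transcription factor, and it was targeted in its exon 2 with a lentiviral CRISPR-Cas9 vector and puromycin selection. Colonies were then grown from single cells, so each MSX2-/- line is 1 clone. No vector, selection or cloning is described for WT, so these cannot be told apart from the MSX2 genotype for any gene. All cells received 40 ng/ml activinA and 50 ng/ml BMP4 for 2 days and then 40 ng/ml VEGF and 50 ng/ml bFGF for 2 days. The growth protocol in the labels also mentions HAND1 overexpression as an option, without saying which library, if any, carried it. Sorting for CD31+ is named in the labels of the MSX2-/- libraries, and in the study's text for WT too. CD31 is an endothelial surface protein that early blood cells also carry.

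In the embryo, the lateral plate mesoderm gives rise to the heart, to blood vessels and to the earliest blood. Within it, HAND1, HAND2, NKX2-5, TBX5, TBX20, ISL1 and MEF2C act together with GATA factors to build the heart. FOXF1 marks the layer around the gut, and TBX2 and TBX3 repress chamber muscle genes in the parts of the heart that stay slow-conducting. Several of them, among them NKX2-5, HAND2, TBX20 and MEF2C, are also active in endocardium or other endothelium, which bears on cells sorted by an endothelial marker.

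HAND1, HAND2 and TBX20 were higher in the MSX2-/- libraries than in WT. Their mean FPKM was 8.20, 2.89 and 4.85 times that of WT. NKX2-5 also stood above WT in all 4 libraries, at 1.90 times the WT mean, and passed the test when the replicate number was in the fit. TBX3 was above both WT libraries in all 4, at 1.56 times the WT mean, and did not pass. FOXF1, ISL1 and MEF2C overlapped between the groups, and TBX2 and TBX5 were too low to test. None of the 8 tested genes was called lower, which was the call for 0.321% of all genes tested, and 3.74% with the replicate number in the fit.

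To show what lies in front of the 3 genes that rose in both fits, the 250 bases before each annotated start are printed here, 5′ to 3′ in the direction of the gene, from RefSeq (GRCh38.p14). Capitals mark matches, on either strand, to the letters TAATTG (the core bound by MSX proteins), AAGTG (bound by NKX2-5), AGGTGT (bound by T-box proteins) or AGATAA (bound by GATA proteins), none of which overlap here.
HAND1, chr5:154478228-154478477, minus strand: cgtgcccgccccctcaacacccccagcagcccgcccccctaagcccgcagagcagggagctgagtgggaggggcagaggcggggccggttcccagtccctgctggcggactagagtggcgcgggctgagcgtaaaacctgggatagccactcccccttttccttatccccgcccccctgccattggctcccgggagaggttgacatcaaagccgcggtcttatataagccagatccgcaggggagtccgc
HAND2, chr4:173530230-173530479, minus strand: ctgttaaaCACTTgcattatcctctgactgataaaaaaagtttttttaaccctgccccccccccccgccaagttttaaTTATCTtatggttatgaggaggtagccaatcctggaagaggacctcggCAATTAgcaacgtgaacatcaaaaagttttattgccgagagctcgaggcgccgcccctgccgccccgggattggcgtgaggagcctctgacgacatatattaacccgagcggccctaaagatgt
TBX20, chr7:35254101-35254350, minus strand: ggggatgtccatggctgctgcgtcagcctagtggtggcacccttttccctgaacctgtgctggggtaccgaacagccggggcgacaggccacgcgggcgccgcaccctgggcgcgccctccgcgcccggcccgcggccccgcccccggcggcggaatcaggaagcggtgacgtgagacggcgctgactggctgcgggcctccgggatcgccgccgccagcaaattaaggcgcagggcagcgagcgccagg
The HAND2 window holds 1 match to the MSX core, 119 to 124 bases before the start. It also holds 1 match to the GATA letters, 167 to 172 bases before the start, and 1 to the NKX2-5 letters, 238 to 242 bases before it. Each of these matches lies on the strand opposite to the printed one. The HAND1 and TBX20 windows hold none of the 4 motifs. RefSeq windows were matched for 6 of the 10 genes (13 windows, since MEF2C has 7 and TBX5 has 2), and the MSX core lies in 3 of them, 1 of HAND2 and 2 of MEF2C. Among 35116 windows of all genes, 6.7% hold the MSX core, 37.6% the NKX2-5 letters, 9.57% the T-box letters and 9.17% the GATA letters. A match describes the letters and is not a site that was measured.

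Levels can be compared between genes in FPKM, which is per length. In WT, MEF2C was the most abundant of the 10 with a mean of 69.9 ± 32.8 FPKM (SD, n = 2), followed by NKX2-5 with 36.2 ± 7.46, TBX3 with 14.3 ± 4.57, HAND2 with 13.6 ± 0.394, ISL1 with 2.42 ± 1.23, TBX20 with 1.81 ± 0.865, HAND1 with 1.73 ± 0.832 and FOXF1 with 0.799 ± 0.439. TBX2 with a mean of 0.122 FPKM and TBX5 with 0.0114 came last. In this order the ranges of TBX3 and HAND2, of ISL1 and TBX20, and of TBX20 and HAND1 overlapped. In the MSX2-/- libraries NKX2-5 came first with 68.5 ± 18.1 FPKM (SD, n = 4), ahead of MEF2C with 60.9 ± 22.5, whose range it overlapped. HAND2 with 39.4 ± 6.41 FPKM stood above TBX3 with 22.2 ± 2.30 without overlap, and HAND1 with 14.2 ± 5.86 and TBX20 with 8.77 ± 1.82 both stood above ISL1 with 2.43 ± 2.01.

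**Figure D1:**
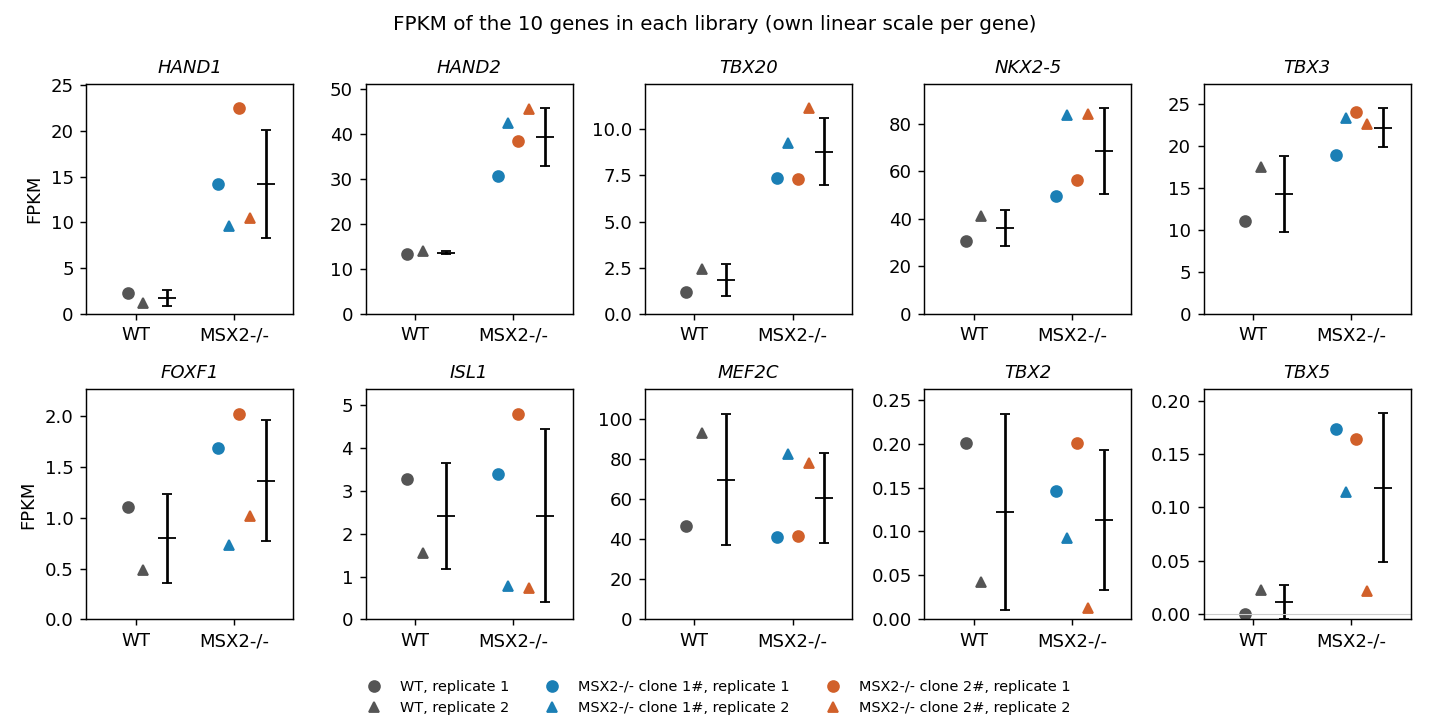
FPKM of each of the 10 genes (vertical axes, linear, 1 scale per gene) in the WT and MSX2-/- libraries, with circles for replicate 1, triangles for replicate 2, and the mean ± SD as a black bar (n = 2 for WT, n = 4 for MSX2-/-). All 4 MSX2-/- libraries sit above both WT libraries for HAND1, HAND2, TBX20, NKX2-5 and TBX3, while ISL1, MEF2C, FOXF1 and TBX2 separate by replicate number.

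Tests were made with limma on log2(FPKM + 1) over 15895 genes, those averaging 0.5 FPKM or more, with Benjamini-Hochberg adjustment over all of them and a threshold of 0.05. On this scale the change of low genes is understated. The comparison was made without a block and then with replicate number as one, since libraries of the same number deviated together. Without the block, 3 of the 8 tested genes were called higher, beside 0.963% of all genes tested. With it, 4 of 8 were called higher, beside 6.11% of all genes. For 5 of the 8, all 4 MSX2-/- libraries lay above both WT libraries, which held for 12.1% of all genes tested. Without the block, leaving out any 1 of the 6 libraries left 0 or 1 of the 3 calls (HAND2 without clone 1# replicate 1, HAND1 without clone 2# replicate 1), and dropping the filter on low FPKM left 0. With the block, the same 4 genes passed without any 1 library and without the filter, where the fits without a WT library assume that the lone WT library varies like the others. The median log2 difference was 0.76 over the 8 tested genes and 0.0081 over all genes tested. With 15 ways to split 4 from 2 libraries, an exact two-sided permutation test gives p = 0.0667 at best, which HAND1, HAND2, TBX3 and TBX20 reached. Nothing in the labels says that the replicates were separate cultures, so the p-values measure the spread between these libraries, which may be technical.

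HAND1 and HAND2 are related bHLH factors, required for heart and extraembryonic mesoderm and for the ventricles. HAND1 (ENSG00000113196.2, chr5:154474972-154478264, minus strand, GRCh38) was at 2.32 and 1.14 FPKM in WT replicates 1 and 2, at 14.1 and 9.61 in clone 1# and at 22.5 and 10.5 in clone 2#. The lowest MSX2-/- library was thus several times the highest WT library, and in every line replicate 1 was above replicate 2. The log2 difference was 2.44 (SE 0.36, limma adjusted p = 0.0382). Among the labels, the growth protocol mentions overexpression of HAND1 as an option for the H1 cells. No label says which library, if any, carried it, and the study's text does not mention it. For HAND1, an added copy and the MSX2 genotype therefore cannot be told apart. If a library carried the added copy, the differences of the other genes would share this limit, which was not tested.

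HAND2 (chr4:173524969-173530229, minus strand) was at 13.4 and 13.9 FPKM in WT, at 30.8 and 42.6 in clone 1# and at 38.5 and 45.6 in clone 2#. Both WT libraries were close together and every MSX2-/- library was well above them. The log2 difference was 1.45 (SE 0.18, limma adjusted p = 0.0208). HAND2 overlaps the antisense gene HAND2-AS1 on the other strand, and how strand was counted is not given in the sources used here, so reads of the pair cannot be told apart. HAND2-AS1 was at 2.37 and 4.82 FPKM in WT and at 8.46 to 14.4 in the MSX2-/- libraries. Its log2 difference of 1.41 (SE 0.30) had a limma adjusted p of 0.0968, and 0.0288 with the block.

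NKX2-5, a homeobox factor of cardiac progenitors that also marks part of the endocardium, lies on chr5:173232109-173235357, minus strand. It was at 30.9 and 41.4 FPKM in WT, at 49.6 and 83.8 in clone 1# and at 56.5 and 84.3 in clone 2#. All 4 MSX2-/- libraries lay above both WT libraries, and replicate 2 was above replicate 1 in every line. The log2 difference of 0.88 had an SE of 0.26 and a limma adjusted p of 0.234 without the block, and an SE of 0.09 and an adjusted p of 0.00407 with it. An exact permutation test of the means gave p = 0.133.

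Of the T-box genes, TBX20 (chr7:35202430-35254147, minus strand), which is needed for heart chamber and valve growth and is active in endocardium, was at 1.20 and 2.42 FPKM in WT. It was at 7.36 and 9.26 FPKM in clone 1# and at 7.33 and 11.1 in clone 2#. The groups did not overlap, and replicate 2 was the higher in every line. The log2 difference was 1.82 (SE 0.26, limma adjusted p = 0.0323).

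TBX3 (chr12:114670254-114684164, minus strand), a repressor with a role in the conduction system, was at 11.04 and 17.51 FPKM in WT, at 18.9 and 23.3 in clone 1# and at 24.0 and 22.6 in clone 2#. The lowest MSX2-/- library was just above the higher WT library. The log2 difference of 0.63 had a limma adjusted p of 0.279, and 0.0528 with the block. Its related repressor TBX2 (chr17:61399896-61409466, plus strand) was at 0.201 and 0.0430 FPKM in WT and between 0.0132 and 0.201 in the MSX2-/- libraries. TBX5 (chr12:114353931-114408442, minus strand), which marks the left ventricle and atria, was listed at 0 in WT replicate 1 and at 0.0228 FPKM in WT replicate 2. In clone 1# it was at 0.174 and 0.114 FPKM, and in clone 2# at 0.164 and 0.0210. Both genes were under the limit for testing, both overlap an antisense gene, and the depth in reads is unknown, so no difference can be read from them.

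ISL1, FOXF1 and MEF2C did not pass the test in either fit. ISL1 (chr5:51383391-51394738, plus strand), a LIM-homeobox factor of the second heart field, was at 3.29 and 1.55 FPKM in WT, at 3.40 and 0.777 in clone 1# and at 4.80 and 0.729 in clone 2#. Both MSX2-/- clones were above WT in replicate 1 and below it in replicate 2. The log2 difference over all libraries was -0.15 (SE 0.57, limma adjusted p = 0.971), with a 95% interval from -1.52 to 1.21. FOXF1 (chr16:86510527-86515418, plus strand), a forkhead factor of splanchnic mesoderm and its vessels, was at 1.11 and 0.489 FPKM in WT, at 1.69 and 0.729 in clone 1# and at 2.02 and 1.01 in clone 2#. Each MSX2-/- library was 1.49 to 2.08 times the WT library of its own replicate number. The log2 difference of 0.38 had a limma adjusted p of 0.734, and 0.182 with the block, so this was not called.

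MEF2C (chr5:88717117-88904257, minus strand), a MADS-box factor of heart, muscle and endothelium, was at 46.6 and 93.1 FPKM in WT, at 41.2 and 82.6 in clone 1# and at 41.8 and 78.1 in clone 2#. In every line replicate 2 was 1.87 to 2.00 times replicate 1. The gene overlaps the antisense genes MEF2C-AS1 and MEF2C-AS2. Each MSX2-/- library was at 0.839 to 0.895 times the WT library of its number. The log2 difference of -0.19 had a limma adjusted p of 0.944, and 0.125 with the block, where its 95% interval ran from -0.34 to -0.03.

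Each MSX2-/- library was then set against WT of its own replicate number, which gives 4 differences per gene that share the WT libraries in pairs. HAND1 was 6.11 to 9.70 times WT, TBX20 was 3.83 to 6.15 times, HAND2 was 2.31 to 3.27 times, NKX2-5 was 1.61 to 2.03 times and TBX3 was 1.29 to 2.18 times. Together with FOXF1, these genes were higher in 4 of 4 such comparisons, as were 23.6% of all genes tested. MEF2C was lower in 4 of 4, as were 21.4% of all genes, and ISL1 was higher in 2 of 4. For HAND1, HAND2, TBX20 and NKX2-5 the SE of the log2 difference fell with the block, to 0.19, 0.12, 0.12 and 0.09, and their limma adjusted p-values were 0.00167, 0.00215, 0.00154 and 0.00407.

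**Figure D2:**
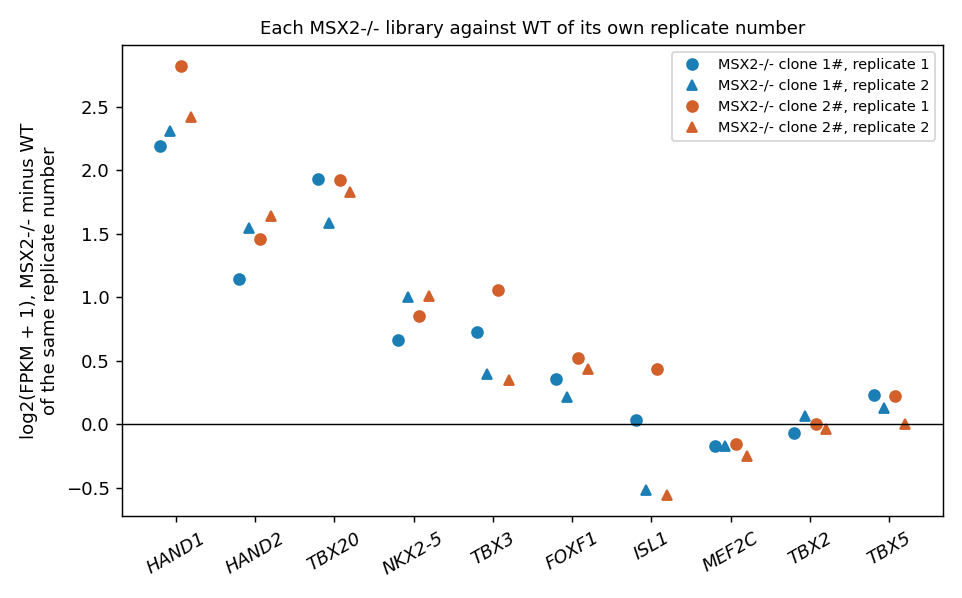
Difference in log2(FPKM + 1) (vertical axis) between each MSX2-/- library and WT of its own replicate number, for each of the 10 genes (horizontal axis), with blue for clone 1#, orange for clone 2#, circles for replicate 1 and triangles for replicate 2. All 4 points lie above 0 for HAND1, HAND2, TBX20, NKX2-5, TBX3 and FOXF1, all 4 lie just below 0 for MEF2C, and those of ISL1 split by replicate number.

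The clones went the same way for the genes that rose. HAND1 had a mean of 11.9 FPKM in clone 1# and 16.5 in clone 2#, HAND2 of 36.7 and 42.1, TBX20 of 8.31 and 9.24, and NKX2-5 of 66.7 and 70.4. Against WT, in a fit with the clones as groups of their own, none of the 8 genes passed in either clone without the block, and of all 15895 genes tested limma then called 0 higher and 1 lower in each clone, while at an unadjusted p under 0.05 4 of the 8 passed in clone 1# and 5 in clone 2#, beside 7.37% and 7.43% of all genes. With the block, HAND1, HAND2, TBX20 and NKX2-5 passed in both clones, which is 4 of 8 genes beside 2.29% of all genes called higher in clone 1# and 2.59% in clone 2#. Their log2 differences in this fit were 2.25 and 2.62 for HAND1 (limma adjusted p = 0.0102 and 0.00847), 1.35 and 1.55 for HAND2, 1.76 and 1.88 for TBX20, and 0.83 and 0.93 for NKX2-5 (limma adjusted p = 0.0270 and 0.0206).

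Between the clones, limma called 0 of all genes with or without the block, with 225 and 530 genes at an unadjusted p under 0.05, none of them among these 8. The log2 difference of clone 2# over clone 1# was 0.37 for HAND1, with a 95% interval from -0.06 to 0.81 with the block. It was 0.20 for HAND2 (-0.12 to 0.53), 0.12 for TBX20 (-0.28 to 0.51) and 0.10 for NKX2-5 (-0.18 to 0.37). A difference of these sizes between the clones is therefore not shown and not shut out.

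The replicate number moved most of these genes as well, in both genotypes. Descriptions in the labels give replicate 1 the letter F and replicate 2 the letter S, without saying what the letters stand for. With genotype in the fit, 6 of the 8 tested genes differed between replicate 2 and replicate 1, beside 34.6% of all genes tested in either direction. MEF2C was higher in replicate 2 by 0.95 on the log2 scale (SE 0.06, limma adjusted p = 0.000831), NKX2-5 by 0.58 (adjusted p = 0.00506) and TBX20 by 0.49 (adjusted p = 0.0226). ISL1 was lower by -1.27 (SE 0.21, adjusted p = 0.00699), HAND1 by -0.73 (adjusted p = 0.0234) and FOXF1 by -0.58 (adjusted p = 0.0270). HAND2 at 0.25 and TBX3 at 0.28 did not pass, with adjusted p-values of 0.140 and 0.182. Leaving out 1 library lowered the 6 calls to 3 or 4, with FOXF1 passing in 0, TBX20 in 1 and HAND1 in 2 of these 6 fits. Of the genes that rose in MSX2-/- cells, HAND1 was thus the one that was lower in replicate 2, and NKX2-5 and TBX20 were higher there.

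**Figure D3:**
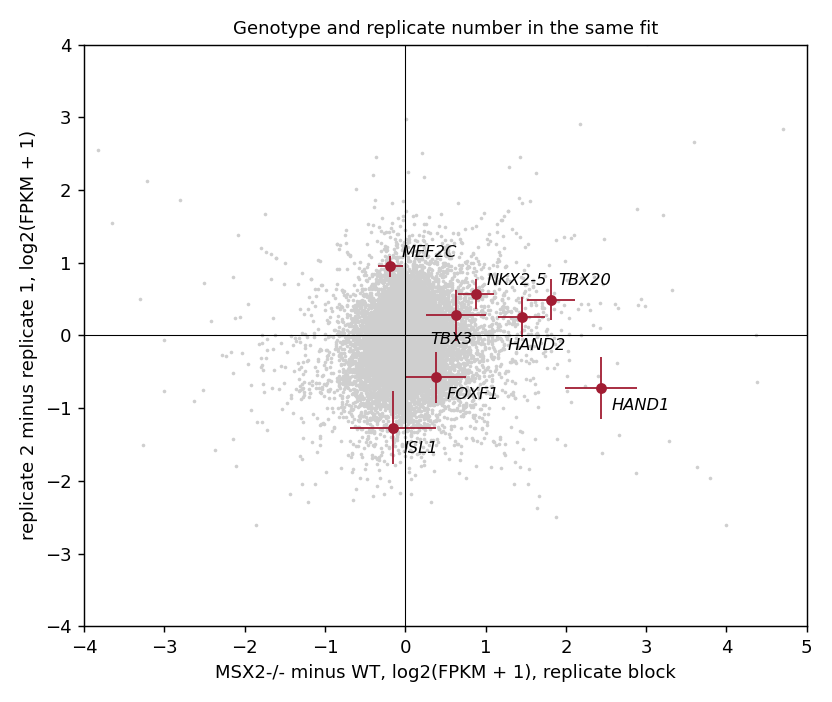
Log2 difference in log2(FPKM + 1) between MSX2-/- and WT libraries (horizontal axis) against that between replicate 2 and replicate 1 (vertical axis), from 1 limma fit with both terms, for the 15895 genes tested (grey) and the 8 tested genes of the set (red, with 95% intervals). Of the 8 genes, HAND1 lies farthest right, at 2.44, and below 0 on the vertical axis, and MEF2C lies near 0 on the horizontal axis and at 0.95 on the vertical axis.

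Whether the genotype difference itself changed with the replicate number was tested by an interaction term, which was chosen after the data were seen. None of the 8 genes passed, and limma called 3 of all genes. The largest values were those of ISL1, at -0.77 (SE 0.32, unadjusted p = 0.0653, adjusted p = 0.463), and TBX3, at -0.52 (adjusted p = 0.484).

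Partner transcription factors were described from a list of 34 genes, of which 27 were tested. Without the block, 3 were called higher and 0 lower, beside 0.963% and 0.321% of all genes tested. With it, 5 were called higher and 2 lower, beside 6.11% and 3.74% of all genes. The median log2 difference was 0.15 over the list and 0.0081 over all genes tested. These shares and this median of all genes also belong beside the counts of every list below. GATA5, a zinc-finger factor of endocardium, was at 2.93 and 2.18 FPKM in WT and at 9.17 to 12.1 in the MSX2-/- libraries, with a log2 difference of 1.77 (SE 0.18, limma adjusted p = 0.0150). HEY2, a Notch target that restrains chamber genes, went from 29.04 ± 2.17 FPKM (SD, n = 2) to 62.2 ± 5.05 (SD, n = 4), with a log2 difference of 1.07 (limma adjusted p = 0.0180). FOXH1, a partner of SMAD proteins in nodal signaling, went from 1.24 ± 0.105 to 5.84 ± 1.35 FPKM (limma adjusted p = 0.0328). Without the block, leaving out 1 library left 0 calls on this list in 5 of 6 fits, and 2 in the fit without clone 2# replicate 1.

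GATA4 and GATA6 were called higher with the block alone. GATA4, the partner of NKX2-5 and TBX20 on heart genes, was at 18.0 ± 8.78 FPKM in WT and 37.0 ± 4.67 in MSX2-/-, with a log2 difference of 1.07 and a limma adjusted p of 0.165 without the block and 0.0450 with it. GATA6 had a log2 difference of 1.04 (adjusted p = 0.00889 with the block). FOXC1 and MEIS2, both active in vessels and outflow tract, were called lower with the block, each by -1.12 (adjusted p = 0.00799 and 0.0174). The most abundant genes of the list, HHEX at 97.5 FPKM, HEY1 at 62.9 and HOPX at 60.6 on average, did not pass in either fit.

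The 25 cardiac muscle genes were mostly low, and 10 were tested. Without the block 1 was called higher, and with it 6, with 0 lower in both fits and a median log2 difference of 1.07. Among the genes tested, MYL3, MYL7, TNNI1 and TNNT2 averaged 0.0954 to 0.290 FPKM in WT. They reached the limit of 0.5 FPKM through the MSX2-/- libraries. The filter thus favours low genes that rise, so these counts and this median are no test of the list. MYL4, the atrial essential light chain that immature cells also make, was at 14.2 and 20.7 FPKM in WT and at 35.1 to 39.6 in MSX2-/-, and it passed without the block (log2 difference 1.07, limma adjusted p = 0.0414). Leaving out 1 library left 0 calls among the muscle genes in 5 of 6 fits, and 1 in the fit without WT replicate 2. ACTC1, cardiac actin, was at 2.47 and 1.57 FPKM in WT, at 24.2 and 10.5 in clone 1# and at 49.5 and 7.67 in clone 2#. Its log2 difference of 2.66 had a limma adjusted p of 0.169, and 0.0127 with the block. MYL7, the atrial regulatory light chain, was at 0.415 FPKM in WT replicate 1, was listed at 0 in WT replicate 2 and was at 2.13 to 8.95 in MSX2-/- (limma adjusted p = 0.0195 with the block). TNNI3, TNNC1 and TPM1, which encode thin-filament proteins, were likewise called with the block alone, with log2 differences of 1.31, 1.51 and 0.76.

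Some other genes of contracting heart muscle were at or near 0 in every library. MYH6 reached at most 0.408 FPKM, MYH7 0.280, TTN 0.323 and NPPA 0.191, MYL2 was above 0 in WT replicate 1 alone, and CSRP3 was listed at 0 in all 6. TNNI1 and TNNT2, which encode troponins, were also low, at 0.0575 to 0.133 and 0.134 to 0.142 FPKM in WT and at 0.452 to 2.28 and 0.449 to 1.21 in MSX2-/-, and did not pass in either fit. The sum over the 25 genes was 64.0 to 75.8 FPKM in WT and 120.1 to 228.5 in the MSX2-/- libraries, of which TPM1 alone, which many cell types make, held 37.0 to 54.7 and 59.5 to 109.3.

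**Figure D4:**
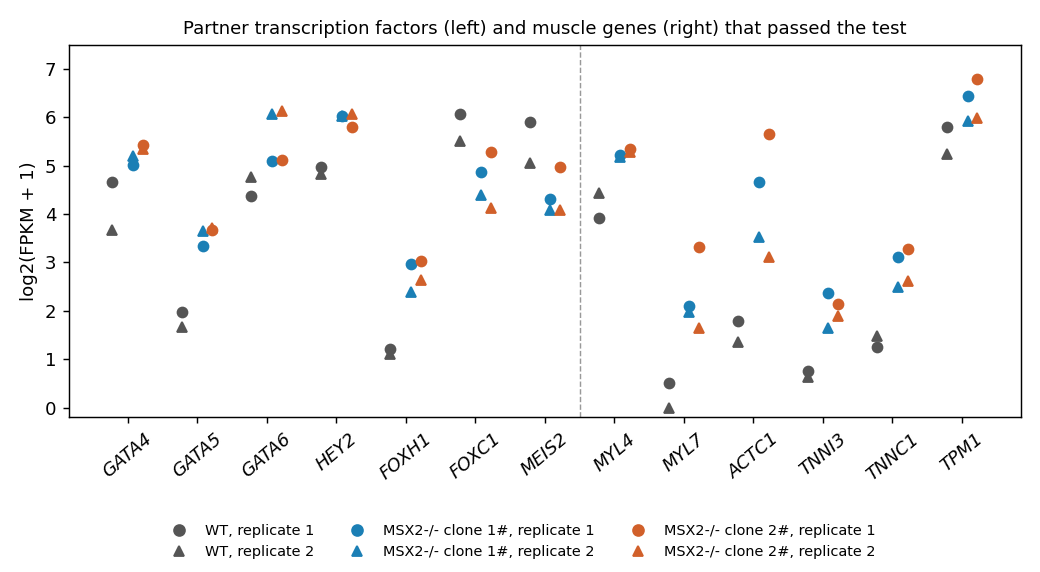
Log2(FPKM + 1) (vertical axis) of the partner transcription factors (left of the dashed line) and cardiac muscle genes (right) that passed the limma test with or without the block, in each library, with grey for WT, blue for clone 1#, orange for clone 2#, circles for replicate 1 and triangles for replicate 2. The MSX2-/- libraries lie above both WT libraries for every gene shown except FOXC1 and MEIS2, for which they lie below both.

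Genes of early mesoderm gave a mixed picture. Of 16 listed, 15 were in the table and 9 were tested, with 0 higher and 1 lower without the block, and 1 and 2 with it. APLNR, the apelin receptor of early mesoderm and vessels, was at 329.0 and 391.2 FPKM in WT and at 77.1 to 93.8 in MSX2-/-, and its log2 difference was -2.06 (SE 0.13, limma adjusted p = 0.00535). KDR, a VEGF receptor, was lower by -0.50 with the block (limma adjusted p = 0.0112). BMP4, a signal that induces lateral mesoderm, was higher by 0.61 with the block (limma adjusted p = 0.0107). BMP4 was at 23.4 and 7.01 FPKM in WT, at 36.0 and 11.9 in clone 1# and at 32.9 and 11.8 in clone 2#. It was thus higher in replicate 1 in every line, and 3006 of the 15895 genes tested were called lower in replicate 2. The brachyury gene, listed under its older symbol T, was at most 0.278 FPKM.

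Of 7 long noncoding RNA genes beside the 10 genes, 6 were in the table and 2 were tested, HAND2-AS1, given above with HAND2, and MEF2C-AS1. MEF2C-AS1 had a mean of 1.04 FPKM in WT and 1.17 in MSX2-/- (limma adjusted p = 0.972, and 0.808 with the block). TBX2-AS1 and TBX5-AS1 were at most 0.150 and 0.0143 FPKM, and MEF2C-AS2 was listed at 0 in all 6 libraries.

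Other cell types that a CD31+ gate could hold were read from marker lists, some of which differed between the groups. In bulk samples, fewer cells of a type and less RNA per cell cannot be told apart. The study's flow cytometry found a larger share of CD43+ blood progenitors among CD31+ cells of the MSX2-/- lines at day 8. The summed level of 15 mesenchymal and smooth muscle markers was 297.0 to 348.7 FPKM in WT and 518.0 to 606.9 in MSX2-/-, with 3 of 12 tested called higher, 6 with the block, and 0 lower. Among them COL1A1, a fibrillar collagen, went from 41.8 ± 19.9 to 198.4 ± 5.52 FPKM, and CNN1, a smooth muscle protein, from 1.85 ± 0.437 to 7.18 ± 0.293. DES, which passed with the block, averaged 0.115 FPKM in WT and reached the limit for testing through the MSX2-/- libraries. The other fibrillar collagens of the list, COL1A2 and COL3A1, had log2 differences of -0.07 and -0.54 and did not pass in either fit. Without COL1A1 and TAGLN the list summed to 253.5 to 259.7 FPKM in WT and 232.4 to 319.3 in MSX2-/-, which overlap. The 13 endothelial markers summed to 3780 to 4579 FPKM in WT and 2581 to 3879 in MSX2-/-, which overlap. Of the 13, 0 were called higher and 3 lower, 8 with the block, led by CLDN5, a tight junction protein, at 105.7 ± 13.8 and 21.3 ± 4.86 FPKM. ROBO4, CD34, FLI1, PECAM1 and EGFL7 did not pass in either fit. Of these, ROBO4 was at 33.7 and 37.4 FPKM in WT and at 39.3 to 50.1 in MSX2-/-, and CD34 had a log2 difference of 0.04. EGFL7 was higher in replicate 2 in every line.

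CDH5, which defines endothelium, was among the genes called lower, at 401.1 ± 30.9 FPKM in WT and 256.0 ± 18.3 in MSX2-/- (log2 difference -0.65, limma adjusted p = 0.0453), with at least 230.2 FPKM in every library. PECAM1, which encodes CD31, was at 186.4 FPKM or more. The 10 hematopoietic markers summed to 127.0 to 165.5 FPKM in WT and 293.1 to 409.0 in MSX2-/-, with 2 of 9 called higher, 6 with the block, and 0 lower. The 7 endocardial markers summed to 5198 to 5584 FPKM in WT and 4356 to 4838 in MSX2-/-. PLVAP made up most of this sum, at 5015 and 5408 FPKM in WT and 4075 to 4612 in MSX2-/-. It did not pass in either fit (log2 difference -0.25, limma adjusted p = 0.254, and 0.0727 with the block). Of the 6 tested, NFATC1 and GATA5 were called higher and NPR3, a natriuretic peptide receptor, lower, and CDH11 was higher with the block. CGNL1 had a log2 difference of -0.006 and did not pass in either fit. NFATC1 was at 29.7 and 35.0 FPKM in WT and 56.4 to 70.9 in MSX2-/-, while NPR3 was at 39.7 and 20.8 FPKM in WT and at 2.94 to 8.34 in MSX2-/-.

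The 8 epicardial markers summed to 6.71 to 11.2 FPKM in WT and 3.37 to 6.74 in MSX2-/-, with TCF21 at most 0.140 FPKM, 0 of 4 tested called without the block, and ALDH1A2 lower with it. The 6 pluripotent markers summed to 60.2 to 73.8 FPKM in WT and 82.2 to 99.4 in MSX2-/-. LIN28A and DPPA4 made up most of this sum, while NANOG was at most 0.373 FPKM and SOX2 at most 0.128. SOX2 was listed at 0 in every MSX2-/- library. The 8 endoderm markers summed to 205.2 to 311.6 FPKM in WT and 330.9 to 547.6 in MSX2-/-. SOX17, which endothelium also expresses, made up most of the endoderm sum, and the other 7 genes summed to 40.2 to 70.6 and 13.1 to 226.9. Neither list had a call without the block, and LIN28A and SOX17, 1 in each, were higher with it. The part of any of these cell types in the levels of the 10 genes was not tested.

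The targeted gene was not lower in the libraries labelled MSX2-/-. MSX2 was at 3.64 and 1.44 FPKM in WT, at 18.0 and 5.62 in clone 1# and at 31.8 and 6.69 in clone 2#, with a log2 difference of 1.99 (SE 0.69, limma adjusted p = 0.309, and 0.0107 with the block). Gene-level FPKM does not show small edits in exon 2, so this level does not check the labels. MSX2 was higher in replicate 1 in every line, and 3006 of the 15895 genes tested were called lower in replicate 2.

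As a description of likeness, the genes with the highest Pearson r to each of the 8 on log2(FPKM + 1) over the 6 libraries, which share a genotype and a replicate number, were found among all genes tested. For HAND1 these were AC004803.1, EPS8L2 and ANKRD18B, with r from 0.994 to 0.998, for HAND2 GAS5, BAG2 and PTGER3, for TBX20 PTGS1, CYTOR and NFATC1, and for NKX2-5 EPAS1, GADD45G and PRCC. For TBX3 they were TMEM209, METTL8 and HELLS, for ISL1 CABYR, CACNB3 and NPDC1, for MEF2C MAGOHB, MSRA and CRACR2A, and for FOXF1 CMC1, PAAF1 and CCNE1. With 6 libraries such values are common, and between 70 and 610 genes reached r = 0.95 with each. Within the set, r was 0.974 between HAND2 and TBX20, 0.925 between NKX2-5 and TBX20, 0.912 between HAND2 and NKX2-5, 0.879 between HAND1 and HAND2, and -0.908 between MEF2C and FOXF1.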

How the data were processed

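RNA of 6 libraries was analysed, 2 of WT and 4 of MSX2-/- cells, grouped by the labels. The authors deposited FPKM values, 1 column per library and replicates not pooled, and no counts. The series' design text names BWA followed by ANOVA and TopHat followed by Cufflinks, while the submitters' processing notes name BWA, Bowtie, RSEM and the build hg19. Which of these made the table, with what annotation, filters and use of strand, is not given in the sources used here. The table's last line holds headings in the form Cufflinks uses and was left out. The titles number the MSX2-/- clones 7 and 10 and the columns 1 and 2, with nothing to match them. Clones 1# and 2# are those of the columns, and whether they are the study's clones of those names is not stated. The table has no coordinates, so positions were taken by symbol from GENCODE 29 (GRCh38). The printed windows use RefSeq starts, so those of HAND1 and TBX20 reach into the genes as GENCODE 29 places them.

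Limma 3.58.1 in R 4.3.3 was run on log2(FPKM + 1) with a mean-variance trend and empirical Bayes moderation, where a gene averaged 0.5 FPKM or more. The design allowed for counts, and limma was its choice for FPKM. The replicate block rests on the labels' shared replicate numbers and on the deviations from the line means, whose correlation over genes was 0.508 between WT and clone 1#, 0.54 between WT and clone 2# and 0.636 between the clones. Summed FPKM was 555286 to 617120 per library, and 13366 to 14222 genes reached 1 FPKM. The first principal component (44.1% of the variance) separated replicate numbers and the next (27.7%) genotypes. The depth in reads is not known, and from ratios of low values relative depth was 1 to 1.18 times that of WT replicate 1.

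The 10 genes and all lists were chosen with earlier results of these data known. A withheld gene of the partner list is not reported here and is left out of its counts. From each list, genes passing with or without the block (up to 8 by smallest p) and the 3 most abundant could be named, as well as the 3 genes most like each of the 10 and the targeted gene, and not all are named. Other genes given by level (MYH6, MYH7, MYL3, TNNI1, TNNT2, COL3A1, TTN, NPPA, MYL2, CSRP3, PECAM1, ROBO4, CD34, FLI1, CGNL1, TCF21, NANOG, SOX2, T and the lncRNA genes) were picked with their values in view. Alternatives are a replicate block, a pseudocount of 0.1, no filter, a mean of at least 1 FPKM, rescaling by median ratio, 3 groups, no trend and leaving out each library.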

Additional observations from a re-analysis of the deposited data

Results flagged for a closer look

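ISL1 was picked out because its difference between MSX2-/- and WT went opposite ways in the replicates. In replicate 1 it was 3.29 FPKM in WT, 3.40 in clone 1# and 4.80 in clone 2#, and in replicate 2 it was 1.55 in WT, 0.777 in clone 1# and 0.729 in clone 2#. The difference between both effects was -0.774 on the log2 scale (SE 0.32), and limma's interaction test gave an unadjusted p of 0.0653 and an adjusted p of 0.463, so it was not called.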

How the results depend on the processing

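With the replicate block, 4 of the 8 tested genes were called in place of 3, and the calls rose from 204 to 1566 over all genes and from 5 to 17 over the listed pathway genes. Under the block with a pseudocount of 0.1, without a filter, with rescaling or without any 1 library (all chosen after seeing the data), HAND1, HAND2, TBX20 and NKX2-5 passed in each fit. In the fits of clone 1# and of clone 2# against WT, 0 genes became 4 with the block, alone or with a pseudocount of 0.1. Fits that leave out a WT library assume that the lone one varies like the others. Without the block, the calls of HAND1, HAND2 and TBX20 depended on single libraries. Leaving out 1 library left 0 to 1 of them, 19 to 82 calls over all genes and 1 to 3 listed genes. HAND1 passed only without clone 2# replicate 1 and HAND2 only without clone 1# replicate 1, and the highest adjusted p reached was 0.182 for HAND1, 0.159 for HAND2 and 0.190 for TBX20. Their log2 differences stayed at 2.12 to 2.75, 1.38 to 1.56 and 1.497 to 2.135 in these fits. Without a filter on low FPKM, 30029 genes were tested and 0 of the 10 genes, 125 genes in all and 3 listed genes were called (adjusted p = 0.104 for HAND1, 0.0507 for HAND2 and 0.0865 for TBX20). With 3 groups, 0, 6 and 1 were called. A pseudocount of 0.1, a mean of at least 1 FPKM, rescaling and no trend each left 3 of the genes called. For replicate 2 against replicate 1, 6 genes became 3 without a filter and 3 to 4 without 1 library, where ISL1, MEF2C and NKX2-5 passed throughout. ISL1 ranged from -0.53 to 0.22 and MEF2C from -0.68 to 0.30 when 1 library was left out. ISL1 turned to 0.22 without WT replicate 1, 0.10 without clone 1# replicate 2, 0.11 without clone 2# replicate 2 and 0.24 with the block and without WT replicate 2, and MEF2C turned to 0.30 without WT replicate 2, none of them called. The cause of these shifts was not tested. The unknown depth in reads limits TBX2 and TBX5.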
